A study of Mus musculus with 9 samples.

Results

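The Fam19a4 Cdh9 subtype of trigeminal low-threshold C-fibre neurons was represented by 220 of the 6997 cell barcodes in the deposited table. These cells made up 5.71% of the 3855 barcodes that passed as neurons and 50.9% of the 432 that passed as low-threshold C-fibre neurons. Measured values chose the members. A neuron had 500 to 7500 genes with a UMI (a unique transcript count), UMIs of at least 3 of 6 pan-neuronal genes (Tubb3, Scn9a, Snap25, Nefl, Nefm and Uchl1) and none of the epithelial gene Epcam. A C-fibre neuron also had at least 1 UMI of Piezo2, at most 1 of Mrgprd and UMIs of at least 3 of 8 entry genes (Gm7271, Cd34, Scin, Fam19a4, Cdh9, Adamts9, Igfbp2 and P2ry1). Members were those in which more genes were seen of a first list of 5 (Ttc29, Fam19a4, Cdh9, Adamts9 and Igfbp2) than of a second list of 5 (Scin, Ceacam10, Cd34, Fbp2 and Iqsec2). The 113 cells with the opposite balance are called the Cd34 Scin subtype, and 99 cells were tied. Of the entry genes 4 belong to the first list and 2 to the second.

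All cells came from untreated wild-type FVB/N mice, aged 3 to 6 weeks by the sample labels, whose trigeminal ganglia were dissociated, cleared of debris on Percoll, depleted of glia and captured by Drop-seq in 9 runs that each pooled several mice. Barcodes in the table name no run or animal, so the table counts as 1 pooled sample, and differences between groups could not be tested. Levels are given as CPM, the UMIs of a gene in every 1000000 UMIs of a group, with exact Poisson 95% intervals in parentheses, and ratios as log2 with exact conditional binomial 95% intervals. These intervals cover counting error only, and the spread between mice or runs is unknown.

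Low-threshold C-fibre mechanoreceptors are unmyelinated sensory neurons that respond to gentle stroking of hairy skin. In the spinal ganglia they are known by tyrosine hydroxylase (Th), the vesicular glutamate transporter VGLUT3 (Slc17a8), the chemokine-like secreted protein TAFA4 (Fam19a4) and the mechanically gated channel Piezo2. They develop under the transcription factor Runx1 and the GDNF-family receptors Ret and Gfra2, and carry little of the peptides that mark many nociceptors.

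Members were sequenced more deeply than most neurons. The median member held 5264.5 UMIs, with extremes of 1065 and 46333, and 2679.5 genes, against 6390 UMIs in the Cd34 Scin subtype and 2770 in the 3423 other neurons, which passed the neuron limits but not the C-fibre limits. A UMI of a subtype gene is more likely to be seen in a deeper cell, so shares of cells are also given after each cell was thinned at random to 1000 UMIs. There were 6 barcodes that occur 2 times, and 1 member carries such a barcode. Neurons of other classes served for comparison: 379 Mrgprd neurons (2 or more UMIs of Mrgprd, the receptor of non-peptidergic nociceptors) and 123 large Ntrk2 neurons (UMIs of Piezo2 and Ntrk2, 3 or more of Nefh), both of which lie within the other neurons. Free RNA was gauged in 237 glia-like and 472 red cell-like barcodes.

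The label was checked against marker genes, and 32 of the 220 members went against it. These 32 cells had 3 or more UMIs of S100b, a calcium-binding protein of large myelinated neurons and of glia, whereas 169 members had none and 19 had 1 or 2. The 32 cells were deep, with a median of 19475.5 UMIs against 4666 in the other 188, and carried 31.0% of all UMIs of the members. A median of 2 genes of the first list and 3.5 entry genes was seen in them, against 3 and 6 in the members without S100b. Nefm, a neurofilament subunit of thick axons, reached 9488 CPM (9248 to 9731) in them, against 715 CPM (671 to 760.3) in the 188 others and 12926 CPM (12715 to 13139) in large Ntrk2 neurons, and Nefh reached 2899 against 384 CPM. Fam19a4 was lower in the 32 cells, at 68.3 CPM (49.4 to 92.0) against 568 CPM (529 to 609), as were Gfra2 (11.1 against 213 CPM), Runx1 (11.1 against 223 CPM) and Cd34 (11.1 against 220.4 CPM). The calcitonin gene-related peptide gene Calca stood at 1984 CPM in the 32 cells and 59.2 CPM in the others. Thy1, a surface glycoprotein, was seen in 100% and 8.51% of cells, and the neurotrophin receptor gene Ntrk2 stood at 111 and 4.28 CPM. The myelin gene Mbp, at 24338 CPM in glia-like barcodes, stood at 90.6 in the 32 cells and 153 CPM in the 188. At least 3 UMIs of S100b were also found in 10 of the 113 Cd34 Scin cells. Because this split was made after the data were seen, results are given for all members. Values without the cells of 3 or more S100b UMIs, left out of both groups compared, are added for named genes and for lists where they changed a call that the text draws on.

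**Figure D1:**
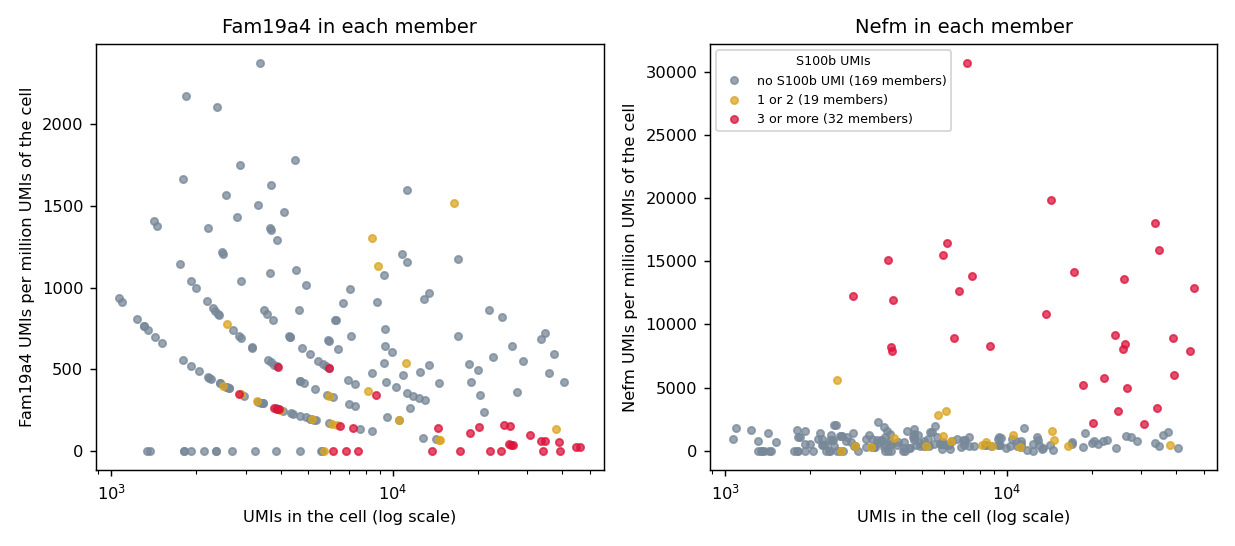
Each point is 1 of the 220 members, by its total UMIs (log scale) and its Fam19a4 (left) or Nefm (right) level in CPM of the cell, coloured by its S100b UMIs. The 32 members with 3 or more S100b UMIs stay at or below 511 for Fam19a4 and reach 30679.9 for Nefm, and the curved rows on the left are cells with 1, 2 or 3 Fam19a4 UMIs.

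The 5 genes of the first list chose the cells, so their levels describe the choice. Fam19a4, at chr6:96831206-97060411 of the GRCm38 assembly, where RefSeq names it Tafa4, was seen in 196 of 220 members and stood at 413 CPM (386 to 442). Its level in a single member ran from 0 to 2375 CPM with a median of 438, and 61 members held a single UMI of it. Cdh9, a type II cadherin gene at chr15:16728550-16857138, was seen in 150 members and stood at 178 CPM (160.3 to 198). Igfbp2, which encodes a protein that binds insulin-like growth factors (chr1:72824480-72852474), was seen in 143 at 164 CPM (147 to 183), and Adamts9, a secreted metalloprotease gene (chr6:92772699-92944450), in 127 at 120.1 CPM (106 to 136). Ttc29, a tetratricopeptide repeat gene known from sperm flagella (chr8:78213282-78394326), was the least often seen, in 66 members at 46.3 CPM (37.4 to 56.6).

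Most members showed only part of the first list. All 5 genes were seen in 31 members, 4 in 48, 3 in 64, 2 in 66 and 1 in 11. Fam19a4 and Cdh9 were seen together in 135 of the 220 members, Fam19a4 alone of this pair in 61, Cdh9 alone in 15 and neither in 9. After thinning to 1000 UMIs, Fam19a4 was seen in 40% of members, Cdh9 in 17.7%, Igfbp2 in 17.3%, Adamts9 in 15.9% and Ttc29 in 7.73%. The same thinned shares in other neurons ran from 0.146% for Ttc29 to 2.22% for Fam19a4. In glia-like barcodes, at a median of 1627 UMIs, 0.422% held a Fam19a4 UMI, and 0 of 237 held a Cdh9 or a Ttc29 UMI, which allows a share of up to 1.27%.

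The first list was not private to the members. Fam19a4 stood at 273 CPM (244 to 305) in the Cd34 Scin subtype and 344 CPM in the tied cells, and Cdh9 at 123 CPM (104 to 146) and 160.4 CPM. Neither reached a 2-fold difference between the subtypes, with log2 ratios of 0.59 (0.41 to 0.79) and 0.53 (0.24 to 0.82). The other 3 genes did, at 3.26 (2.12 to 5.05) for Ttc29, 1.95 (1.52 to 2.43) for Igfbp2 and 1.65 (1.19 to 2.167) for Adamts9. Mrgprd neurons held Fam19a4 at 73.1 CPM (64.1 to 82.9), large Ntrk2 neurons at 7.19 CPM (3.11 to 14.2) and all other neurons at 22.3 CPM (20.1 to 24.7). The level of Fam19a4 fell in the order members, ties, Cd34 Scin, Mrgprd, other and large Ntrk2 neurons. The counting intervals of neighbours in this order did not overlap. The first list helped to choose members, ties and Cd34 Scin cells, so this order and the ratios between the subtypes describe the choice.

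Genes of the second list were in turn found in many members. Cd34, a sialomucin known from blood progenitors and vessels, was seen in 51.4% (44.6 to 58.1) of members at 156 CPM (139 to 174), against 332 CPM (299.7 to 368) in the Cd34 Scin subtype, where it helped to choose the cells, and 3.41 CPM in other neurons. Its log2 ratio between the subtypes was -1.10 (-1.32 to -0.88), and -0.92 (-1.14 to -0.70) without S100b cells. No gene of the second list was seen in 62 of the 220 members. Both lists entered the choice of cells, and a gene is more often seen in a deeper cell. Across the 432 C-fibre neurons the most frequent combinations, of 33 cells each, held 2 genes of the first list with 0, 1 or 2 of the second, and 4 cells held all 10 genes.

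**Figure D2:**
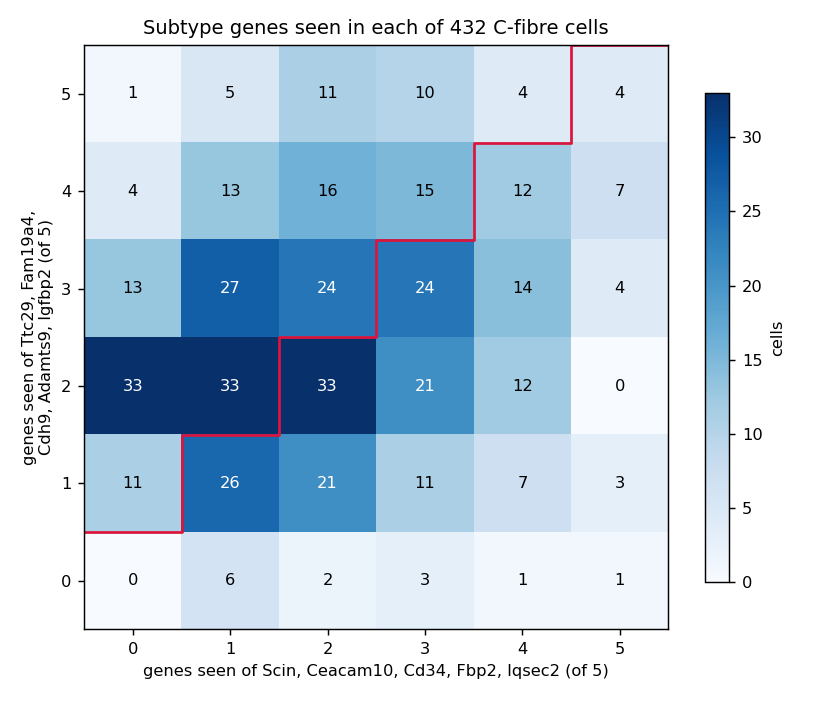
The number of the 432 low-threshold C-fibre neurons is shown for each combination of genes seen of the first list (vertical, of 5) and of the second list (horizontal, of 5). The 220 members lie above the red line, the 113 Cd34 Scin cells and the 99 ties below it, and the fullest squares hold 33 cells each on both sides of it.

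The limit between member and tie lay at a difference of 1 gene. The 87 members with a margin of 1 gene had 263 CPM of Fam19a4, below the 99 ties at 344, and the 47 with a margin of 3 or more had 749. At the limit on entry genes, the 45 members with exactly 3 had a median of 2674 UMIs and 257 CPM of Gm7271. The 175 members with 4 or more had 928 CPM of it, and 60 cells with 2 entry genes that met the other limits had 219. S100b was highest at this limit, with 1439, 283 and 1236 CPM in the same order. The limit of 1 Mrgprd UMI kept out 30 cells that met the rest, with 89.2 CPM of Gm7271, and the Piezo2 limit kept out 4.

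Piezo2, the channel of touch neurons, was required by the rule at 1 UMI or more, so its levels describe the choice. Members held a median of 1859 CPM of it (range 176 to 6280.5) and 103 of them had 10 or more UMIs. Its summed level was 1597 CPM (1543 to 1653), compared with 1196 CPM (1134 to 1262) in the Cd34 Scin subtype, 839.7 CPM (787 to 895) in large Ntrk2 neurons, 797 CPM (766 to 828) in Mrgprd neurons and 394 CPM (384 to 403) in other neurons. Mrgprd and other neurons were not required to hold a Piezo2 UMI. Gm7271, a predicted gene of unknown role, and P2ry1, a receptor for ADP, were entry genes. They stood at 818 and 299 CPM in members and 977 and 268 in the Cd34 Scin subtype, against 48.0 and 23.2 in other neurons.

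Of 11 genes known from spinal low-threshold C-fibre neurons, all were measured in the members and 8 stood at least 2-fold above other neurons. In that comparison 477 of 11935 genes with 50 or more UMIs over both groups were at least 2-fold higher in members (4%) and 1240 at least 2-fold lower (10.4%), and the median log2 ratio of all genes was -0.02. The list's median log2 ratio was 1.62. Pou4f2 (the POU-domain factor Brn3b) was seen in 50.9% of members and stood at 139 CPM (124 to 157) against 13.4 CPM (11.7 to 15.3), and Bhlha9, a helix-loop-helix factor, at 74.3 CPM (62.9 to 87.2) against 7.47 CPM (6.22 to 8.90). Kcnd3, which encodes the A-type potassium channel Kv4.3, stood at 188 CPM (169.6 to 208) against 25.4 CPM (23.0 to 27.9), and Zfp521, a zinc finger factor, at 108 CPM (94.5 to 124) against 17.7 CPM (15.7 to 19.8). Cacna1h (the T-type calcium channel Cav3.2), Gfra2 (the neurturin coreceptor) and the zinc finger gene Casz1 had log2 ratios of 1.62 (1.27 to 1.95), 1.29 (1.10 to 1.48) and 1.19 (1.01 to 1.37). Slc17a8, the VGLUT3 gene, was seen in 26 members, in 22 of them as a single UMI, and stood at 15.3 CPM (10.4 to 21.7) against 1.31 CPM (0.824 to 1.99). Runx1 (0.21) and Ret (-0.10) stayed within 2-fold. Both are known from non-peptidergic nociceptors too, and in Mrgprd neurons they stood at 252 and 631 CPM.

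Th, the rate-limiting enzyme of catecholamine synthesis and the gene by which these neurons are known in spinal ganglia, was scarce. It was seen in 7.27% (4.21 to 11.5) of members and stood at 25.6 CPM (19.1 to 33.6), close to other neurons at 17.985 CPM (16.0 to 20.1). Of its 52 UMIs in members, 23 came from 1 cell, and without that cell the log2 ratio against the Cd34 Scin subtype moved from -1.87 (-2.39 to -1.39) to -2.71. The Cd34 Scin subtype held it in 18.6% (11.9 to 27.0) of cells at 94.3 CPM (77.3 to 114) and the ties at 115 CPM (95.5 to 138). In the Cd34 Scin subtype too a few cells carried most of it, since 3 of the 113 held 57.9% of its 107 Th UMIs and the highest held 24. Among members Th stood at 47.9 CPM at a margin of 1 gene, 10.2 at 2 (8 UMIs) and 2.83 at 3 or more (1 UMI). The cell with 23 UMIs had a margin of 1 gene, and without it that value was 23.4 CPM (14.3 to 36.1). The 32 members with S100b held 0 UMIs of Th, as did the glia-like barcodes.

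**Figure D3:**
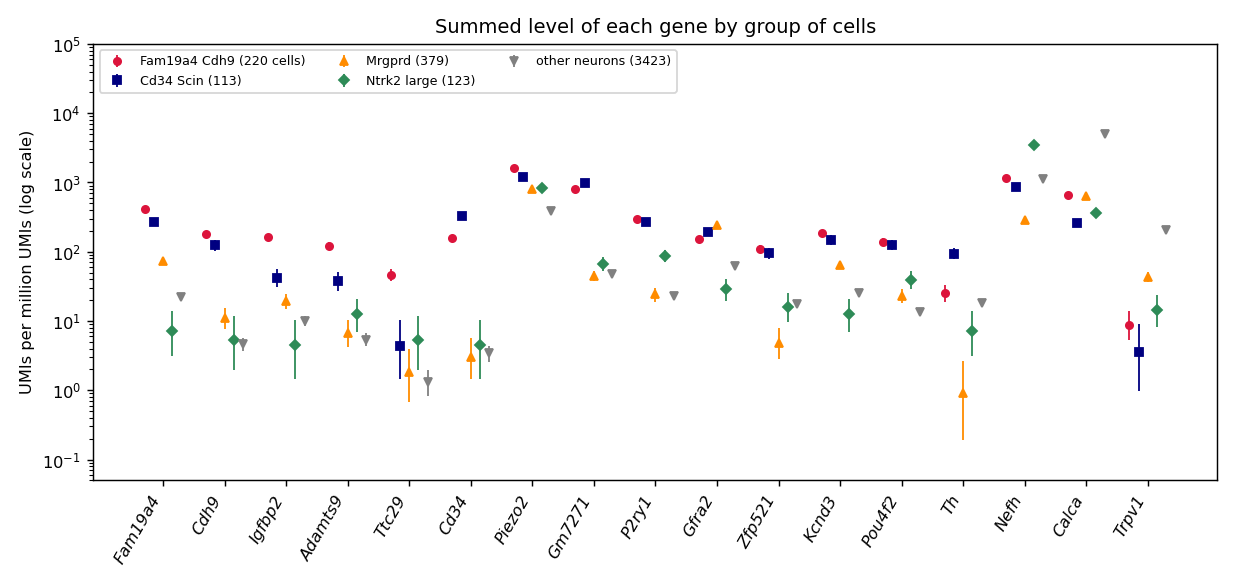
Summed levels in CPM (log scale) of 17 genes in 5 groups of cells, with exact Poisson 95% intervals that cover counting error only. Members and the Cd34 Scin subtype lie together and above the other groups for the genes from Piezo2 to Pou4f2 except Gfra2, while Trpv1 and Calca are highest in other neurons.

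The members were next compared with the Cd34 Scin subtype, the group most like them. Of 7675 genes with 50 or more UMIs over both groups, 184 were at least 2-fold higher in members (2.4%) and 51 at least 2-fold lower (0.664%), and the median log2 ratio was 0.03. The genes that led the higher side, by the lower bound of the interval, included Atp2b4, Ly86, Bex1, Tmem233 and Marcksl1. Fxyd2, Hspb1, Th, Gabra3 and Rarres1 were among those that led the lower side. The rule chose the cells on genes of the same libraries, so this contrast describes the split and is no independent test of it.

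Atp2b4, which encodes the plasma membrane calcium pump PMCA4, stood at 70.4 CPM (59.3 to 82.9) in members and 7.05 CPM (3.04 to 13.9) in the Cd34 Scin subtype. It was seen in 29.5% and 4.42% of cells, and in 1.27% of glia-like barcodes, for a log2 ratio of 3.24 (2.30 to 4.56). Other neurons held more of it, at 134 CPM (128 to 139). The gene graded with the margin, from 155 CPM at 3 or more genes through 71.7 and 35.7 to 13.7 in ties, 9.88 in Cd34 Scin cells 1 gene past the tie and 0 further on. Bex1, a small adaptor of neurotrophin receptor signalling, had a log2 ratio of 2.58 (1.91 to 3.40), and Marcksl1, an actin-regulating membrane protein, one of 2.43 (1.80 to 3.21). Both graded the same way, at 178 and 147 CPM at a margin of 3 or more and 20.5 and 30.3 in ties. Among members S100b fell with the margin too, from 622 CPM at 1 gene through 492 to 56.5 at 3 or more. All 3 genes were lower in members with 3 or more S100b UMIs than in members without S100b. Atp2b4 stood at 7.94 against 97.8, Bex1 at 42.9 against 131 and Marcksl1 at 54.0 against 121 CPM. The part of the S100b cells in the gradient among members was not tested. The 3 genes had been picked on all UMIs, so a measure on part of those UMIs is not independent of the picking. When cells were chosen on a random 50% of UMIs and measured on the rest, the log2 ratios of these 3 genes were 3.39, 2.04 and 2.21. That choice gave 167 members, with 130 genes higher and 52 lower, of which 53 and 17 had also been called in all UMIs.

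Basp1 and Gap43 encode membrane proteins of the growth cone. Basp1 stood at 422 CPM (394 to 451) in members and 127 CPM (107 to 149) in the Cd34 Scin subtype, a log2 ratio of 1.73 (1.48 to 1.997), and Gap43 at 678 and 328 CPM, a ratio of 1.05 (0.88 to 1.22). Without cells of 3 or more S100b UMIs, Gap43 stood at 213 CPM (189.8 to 239) against 20.7 CPM (12.3 to 32.8), and the ratio was 3.33 (2.68 to 4.14). Other neurons held 1266 CPM of Gap43 in all cells and 1161 CPM without S100b cells. P2rx3, an ATP-gated channel, had a ratio of 1.37 (0.65 to 2.22), and 3.01 (1.85 to 4.80) without these cells. The kainate receptor gene Grik1 passed 2-fold only without them, with 1.12 (0.92 to 1.34) against 0.97 (0.77 to 1.18) in all cells. Both channel genes stood higher in Mrgprd neurons than in members, with P2rx3 at 84.1 against 41.8 and Grik1 at 1019 against 442 CPM. So did Ly86, at 1502 against 96.0, and Tmem233, at 2326 against 100.4 CPM, and in members a single cell held 29.2% and 35.8% of the UMIs of Ly86 and Tmem233. The 32 members with S100b held 146 of the 195 Ly86 UMIs and 148 of the 204 Tmem233 UMIs. Without S100b cells the ratios against the Cd34 Scin subtype were 4.35 (2.38 to 10.26) and 2.22 (1.17 to 3.69). All Cd34 Scin cells held 17 Ly86 UMIs, 14 of them in 1 cell, so the Ly86 ratio without S100b cells rests on few UMIs there. Mrgprd itself had 3 UMIs in all members, as the rule requires at most 1 per cell.

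Part of the higher side rested on the S100b cells. Cartpt, a neuropeptide gene, was seen in 27 members, of which 16 belonged to the 32, and its log2 ratio of 1.998 (1.53 to 2.54) became -0.38 (-1.56 to 0.86) without S100b cells. Cdh13, an atypical cadherin without a cytoplasmic domain, had 91 UMIs in members, and 3 of these were left. Calca passed 2-fold in all cells, at 1.32 (1.14 to 1.51), but 3 members held 73.2% of its UMIs and the ratio was 0.25 (-0.29 to 0.82) without S100b cells. Without these cells 193 of 6614 genes were higher (2.92%) and 70 lower (1.06%). They shared 112 and 29 with the genes called in all cells.

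On the lower side, Fxyd2, the gamma subunit of the sodium pump, stood at 2312 CPM (2246 to 2379) in members against 5886 CPM (5746 to 6029). It was lowest in members with S100b (291 CPM), but the ratio of -1.35 (-1.40 to -1.29) was still -1.22 (-1.27 to -1.16) without them. Hspb1, the small heat shock protein Hsp27, was seen in 57.3% of members and 90.3% of Cd34 Scin cells at 343 and 830.5 CPM, and Gabra3, a GABA-A receptor subunit, in 43.2% and 70.8% at 90.6 and 215 CPM. Rarres1, Defb42 and Tmem154 were lower as well, with log2 ratios of -1.11 (-1.26 to -0.95), -1.35 (-1.76 to -0.95) and -1.78 (-2.68 to -0.97). Gabra3 and S100a13 came to -0.87 and -0.40, within 2-fold, with cells chosen on a random 50% of UMIs. Tac1, the gene of substance P, stood at 397 against 665 CPM, within 2-fold in all cells and past it without S100b cells, at -1.44 (-1.61 to -1.26). Growth hormone (Gh) was the gene with the lowest upper bound, at 232 against 1300.4 CPM. It is a pituitary gene that was also present at 2578 CPM in glia-like and 8984 CPM in red cell-like barcodes, and the part of free RNA in this difference was not tested.

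**Figure D4:**
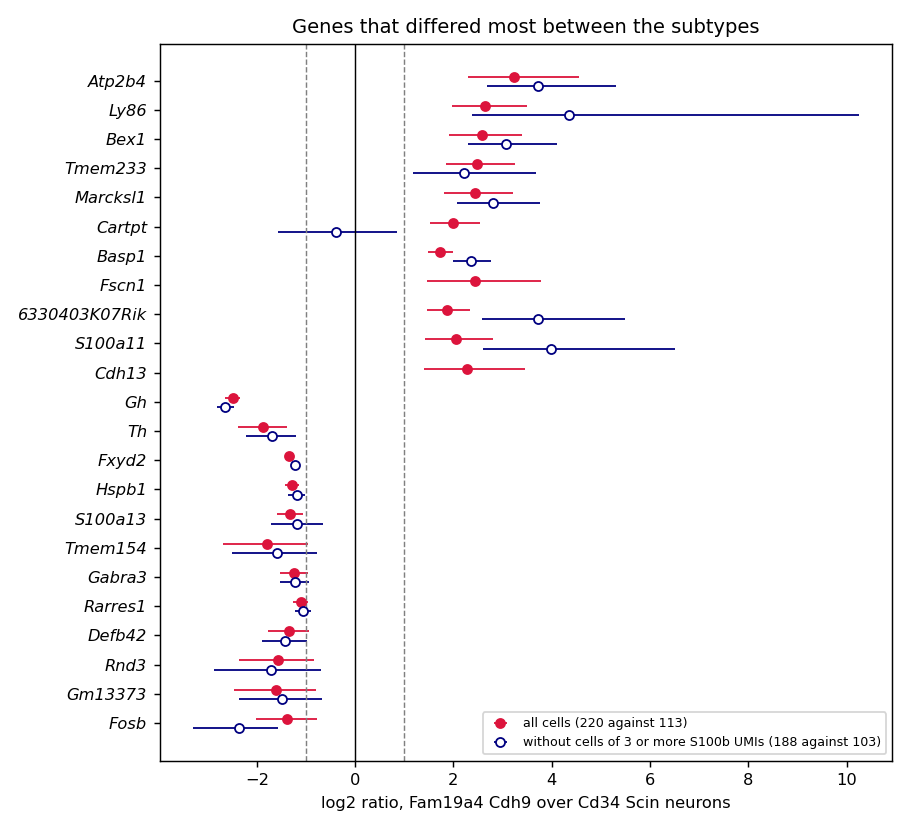
Log2 ratios of 23 of the genes that differed most between members and the Cd34 Scin subtype, for all cells (filled) and without cells of 3 or more S100b UMIs (open), with exact 95% intervals of counting error and dashed lines at 2-fold. Cartpt changes side without the S100b cells, and Fscn1 and Cdh13 have no open point because the Cd34 Scin cells then hold 0 UMIs.

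Against other neurons, the 12 genes outside the rule with the highest lower bound were Cacna1i, Synpo2, Wfdc2, Wnt11, Ccl1, Depdc7, Tshr, Epb4.1l4a, Pou4f2, Adrb1, Nxpe2 and Gnb3. Cacna1i, which encodes the T-type calcium channel Cav3.3, stood at 21.2 CPM (15.3 to 28.5) against 0.657 CPM (0.328 to 1.18) in other neurons and 13.2 CPM (7.40 to 21.8) in the Cd34 Scin subtype. It was seen in 37 members, in 31 of them as a single UMI, and in 0 of 237 glia-like barcodes. Wfdc2, a secreted protease inhibitor-like gene, was seen in 38.2% of members at 106 CPM (92.6 to 121) against 5.44 CPM (4.38 to 6.68), and reached 13.6% of members after thinning against 0.672%. The secreted ligand genes Wnt11 and Ccl1 had log2 ratios of 4.66 (3.83 to 5.64) and 4.60 (3.76 to 5.58). Tshr, the thyrotropin receptor gene, had 3.99 (3.19 to 4.86) and the adrenergic receptor gene Adrb1 3.89 (3.12 to 4.73). These 4 genes were seen in 16.8%, 14.1%, 12.3% and 12.3% of members. Against the Cd34 Scin subtype all 12 stayed within 2-fold, from -0.88 for Adrb1 to 0.83 for Epb4.1l4a. On the lower side Gal, Trpm8, Trpv1, Gfra3, Adcyap1, Dcn, Lpar1, Adamts1, Aldh1a3, Arhgap15 and Lpar3 were among the leading genes, from -3.99 for Lpar3 to -6.31 for Gal.

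Of 16 thermal and chemical channel genes compared with other neurons, 7 were at least 2-fold lower in members and none higher. Over all 11935 genes of this comparison 4% were higher and 10.4% lower, and the lists below are to be read against these shares. Without S100b cells, where 607 of all 11346 genes compared were higher (5.35%) and 1537 lower (13.5%), 8 of the list were lower and 1, the ATP-gated channel gene P2rx2, was higher. The capsaicin receptor gene Trpv1 stood at 8.86 CPM (5.25 to 14.002) against 208 CPM (201 to 215), the cold receptor gene Trpm8 at 1.48 against 79.4 and the irritant receptor gene Trpa1 at 23.1 against 147 CPM. Trpv1 in members was close to the 5.82 CPM of glia-like barcodes. Of 18 mechanotransduction genes 3 were higher (Piezo2, which the rule requires, Tmem150c and the acid-sensing channel gene Asic2). Lower were 6, or 8 without S100b cells, among them the stomatin-like gene Stoml3 and the potassium channel genes Kcnk2 and Kcnk4. Stoml3 and Omp were also listed as markers of other neuron classes. Which of the other neurons carried Stoml3 was not tested. Asic3, another acid-sensing channel, was seen in 75% of the 32 S100b members and 7.45% of the others. Of 39 potassium channel genes 5 were higher (Kcnd3, Kcnd2, Kcnip2, Dpp10 and Kcnv1) and 9 were lower. Without S100b cells Kcnd2 was no longer among the higher genes, Kcna1 and Kcnh2 joined them, and 11 were lower. Dpp10 stood at 268 CPM (246 to 292) against 55.4 CPM (51.9 to 59.1). Of 18 calcium and HCN channel genes, the T-type genes Cacna1h and Cacna1i and the auxiliary gene Cacna2d3 (1.45) were higher and 4 were lower, or 3 without S100b cells. Of 13 sodium channel genes Scn2a1 and Scn11a were lower, Scn11a only with the S100b cells (-1.02, and -0.92 without). Scn3a and Scn4b were higher only without these cells, at 1.04 and 1.38. Scn10a (Nav1.8) stood at 277 and Scn11a (Nav1.9) at 206 CPM in members, against 434 and 418 in other neurons and 1098 and 1142 in Mrgprd neurons.

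Among 26 transcription factor genes 10 were higher than in other neurons and 5 lower. Besides Pou4f2, Bhlha9, Zfp521 and Casz1, the higher genes included Tox3 at 171 CPM (154 to 190.3) against 25.5 CPM (23.2 to 28.1), Id4 at 220.0 against 61.9 and Pou4f1 (Brn3a) at 319 against 134 CPM. Runx3, a factor of large proprioceptive and touch neurons, also passed 2-fold, but all of its 20 UMIs came from the 32 S100b members. Without these cells 9 transcription factor genes were higher and 7 lower, of 22 compared. Of 12 growth factor receptor genes, Gfra2 and Ntrk3 were higher, at 1.29 (1.10 to 1.48) and 1.44 (1.14 to 1.73), and Gfra3 (the artemin coreceptor), Kit and Osmr were among those lower. Without S100b cells Ntrk2 and Gfra1 were lower too. Gfra3 was seen in 3 of 220 members and in 32.7% of other neurons.

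The neuropeptide genes were low. Of 15 compared, 13 were at least 2-fold lower in members than in other neurons and none higher, with a median log2 ratio of -2.96. Gal (galanin) stood at 4.43 against 371, Adcyap1 (PACAP) at 19.7 against 336, Tac1 at 397 against 3099 and Calca at 656 against 4963 CPM. Without S100b cells the Calca level in members was 59.2 CPM (47.1 to 73.4), and glia-like barcodes held 67.9 CPM of it. Of 5 Mas-related receptor genes 4 were lower, 1 of them Mrgprd, which the rule limits. Among 26 inhibitory and other G protein-coupled receptor genes 17 were lower and 4 higher. The lower ones included the opioid receptor genes Oprm1 and Oprk1 and the lysophosphatidic acid receptor genes Lpar1 and Lpar3, and the higher ones were P2ry1, which is an entry gene, Gpr64, Htr1d and P2ry2. Without S100b cells Ptger3, a prostaglandin receptor gene, stood in place of P2ry2. Gpr64, an adhesion receptor gene, stood at 244 CPM (223 to 266) against 53.9 CPM (50.4 to 57.5), and Htr1d, a serotonin receptor gene that is a target of migraine drugs, at 31.0 against 7.77 CPM. Of 26 genes of transmitter release and GABA or glutamate receptors, 6 were higher, among them the GABA-A receptor subunit genes Gabra2, Gabra3 and Gabra5, and 4 were lower (Gad2, Gabrg3, Grik2 and Grm7). Without S100b cells 7 of 23 were higher and 8 lower. Gabra2 stood at 226 CPM (206 to 248) against 87.8 CPM (83.4 to 92.4). Gabra5 rested on the S100b members, since its ratio of 1.13 (0.70 to 1.52) became -1.20 (-3.27 to 0.04) without them. Genes of axon calibre and calcium binding showed this split as a list. Of 14 compared, Necab2, Necab3 and Ina were higher and none lower in all cells, whereas 3 of 13 were higher and 6 lower without S100b cells.

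**Figure D5:**
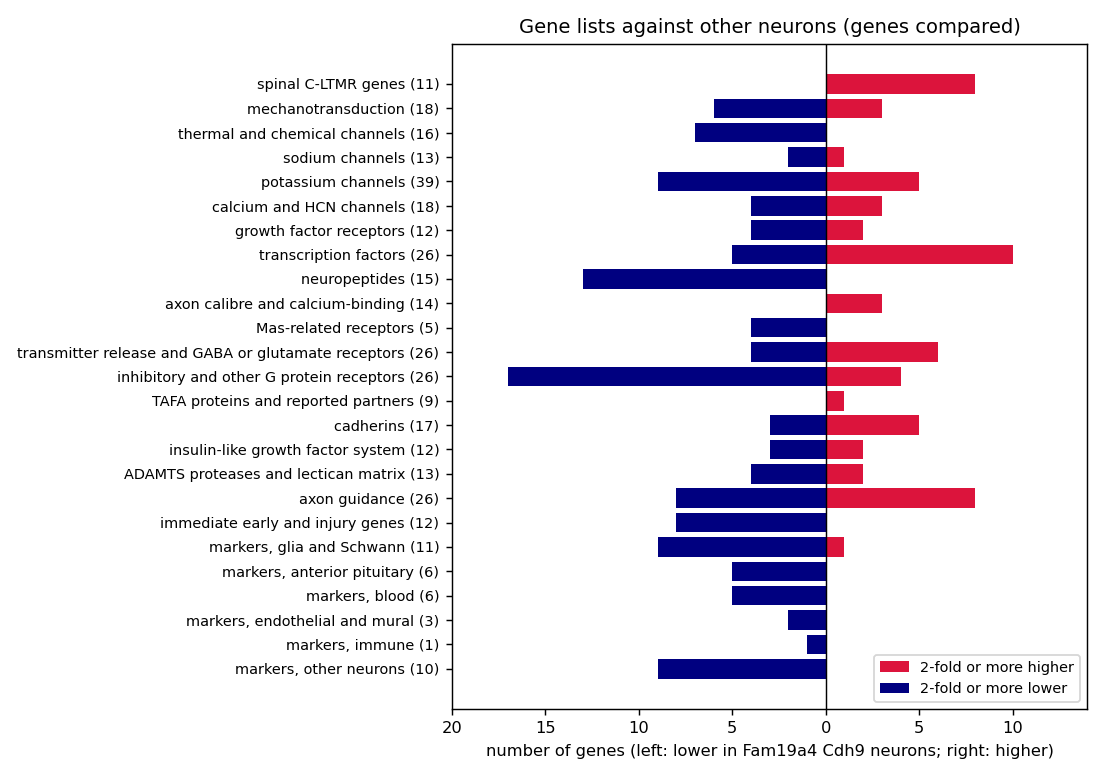
For each gene list, with the number of genes compared in parentheses, bars give how many were at least 2-fold higher (right) or lower (left) in members than in the 3423 other neurons. Neuropeptides and thermal and chemical channels extend to the left only (13 and 7 genes), and spinal low-threshold C-fibre genes, labelled C-LTMR, to the right only (8 genes). Rule genes, such as Piezo2, Fam19a4 and Cdh9, are counted in their lists.

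Families of the subtype genes were also followed. Of 17 cadherin genes compared, Cdh9, a rule gene, and Cdh10, Cdh4, Cdh11 and Cdh18 were higher than in other neurons and Pcdh9, Pcdh17 and Pcdh19 lower. Without S100b cells the same 5 were higher and 8 were lower, among them Cdh12, Cdh13 and Cdh15. Cdh4 stood at 47.3 CPM in members, 26.4 in the Cd34 Scin subtype and 18.6 in other neurons. Of 13 ADAMTS and lectican genes, Adamts3 was higher besides the rule gene Adamts9, at 45.3 CPM (36.5 to 55.5) against 5.92 CPM (4.81 to 7.20), and 4 were lower. Igfbp6 was higher besides the rule gene Igfbp2 among 12 genes of the insulin-like growth factor system, but rested on 12 UMIs in 7 members. Igfbp5, Igfbp7 and Igfbpl1 were lower, as were Igf1 and Irs2 without S100b cells. Of the TAFA proteins and their reported partners none passed 2-fold in all cells besides Fam19a4, which the rule used, and Fam19a1, Fam19a2 and Nrxn3 were lower without S100b cells. Fam19a2 was seen in 27 of the 32 S100b members and 4 of the other 188. Of 26 axon guidance genes 8 were higher and 8 lower, or 8 and 10 without S100b cells. The neuropilin gene Nrp1 was seen in 93.6% of members at 603 CPM (569.7 to 638) against 108 CPM (103 to 113), and its ligand family member Sema3e at 82.7 CPM (70.7 to 96.2) against 14.8 CPM (13.0 to 16.8).

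Variation among the members was larger than sampling of UMIs gives for a minority of genes. Of 4119 genes with 100 or more UMIs in members, 280 had more than 2 times the variance expected from depth, and the median ratio of observed to expected variance was 1.16. The most variable included Hbb-bs, Nefm, Calca, Gh, Malat1, mt-Cytb, Nefl, mt-Nd1, Fxyd2, Meg3 and mt-Rnr2. Nefm and Nefl encode neurofilament subunits of thick axons and Calca a peptide, and these were high in the S100b members. Nefm ran from 0 to 30679.9 CPM with a median of 763 and a 90th percentile of 7938. Fxyd2 ran from 0 to 11740.3 CPM with a median of 1204. Hbb-bs (haemoglobin) and Gh are genes of other cells.

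Markers of other cells were present at levels below those of other neurons. The 12 glia and Schwann markers summed to 2030 CPM in members, 2161 in the Cd34 Scin subtype, 2747 in other neurons and 117083 in glia-like barcodes, and Cdh19 was at 0 in members. Most of the sum in members was Pmp22 (1679 CPM), which was also above other neurons (500.4 CPM). The 9 pituitary markers summed to 569 CPM in members and 1634 in the Cd34 Scin subtype, blood markers to 2767 and 3160, endothelial and mural markers to 16.7 and 33.5 and immune markers to 2.46 and 2.64. The markers at 0 in members were Lhb and Pou1f1 of the pituitary, Car1 of blood, Cldn5 of vessels and Ptprc, C1qa and Tyrobp of immune cells. The 10 markers of other neuron classes summed to 1119 CPM in members, 976 in the Cd34 Scin subtype and 8655 in other neurons. Markers of another class included Trpm8, Trpv1, Mrgpra3, Nppb, Mbp, Gh and Prl. At least 2 UMIs of such a marker were found in 81 of 220 members (36.8%) and 69 of 113 Cd34 Scin cells (61.1%). The share in other neurons, among which lie classes that such markers define, was 1577 of 3423 (46.1%). Gh alone, with at least 1 UMI, was seen in 37.7% of members and 69.9% of Cd34 Scin cells. Mice of both sexes were pooled. Both Xist and a Y-linked gene were seen in 7 members (3.18%), compared with 1.77% of Cd34 Scin cells and 0.876% of other neurons. Both are more likely to be seen together in a deeper cell, and median UMIs were 5264.5, 6390 and 2770 in the same order. Whether free RNA or more than 1 cell under a barcode has a part in the values above was not tested.

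Of 12 immediate early and injury genes 8 were at least 2-fold lower in members than in other neurons (Fos, Fosb, Jun, Junb, Egr1, Ier2, Atf3 and Hspa1a) and none higher. Over all genes of this comparison 10.4% were lower and 4% higher. Without S100b cells Gap43 was lower too. Fos stood at 198 CPM in members, 342 in the Cd34 Scin subtype and 556 in other neurons, Jun at 201, 205 and 617, and Atf3, which is known to rise after axon injury, at 89.6, 123 and 206. Fosb was lower in members than in the Cd34 Scin subtype too, at -1.38 (-2.01 to -0.78).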

How the data were processed

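Trigeminal ganglion cells of untreated wild-type FVB/N mice were profiled by Drop-seq, and the authors deposited 1 table of raw UMI counts for 21536 genes in 6997 barcodes (30491529 UMIs, at least 1000 and a median of 2031 per barcode). The submitters' processing notes name bcl2fastq 2.17, STAR 2.5.3a, Seurat 1.4.0.16 and the mm10 build. Fam19a4 Cdh9 neurons were chosen by the limits given above, without normalization. The members and all gene lists were chosen with earlier results of these data known. No doublet caller was run. Because no barcode names its run or animal, no test was made. UMIs were summed over the cells of a group, and ratios of UMIs plus 0.5 per UMI were taken for genes with 50 or more UMIs over both groups and counted as different past 2-fold. Named genes were those of the fixed lists, the 12 with the highest lower bound and the 12 with the lowest upper bound of the interval per comparison (seen in at least 10% of the cells of the higher group), and the 12 most variable among members. Genes named beyond these, chiefly those that move with S100b, were chosen after their values were seen. A few genes are not reported here. Coordinates are those of RefSeq on GRCm38. Python 3.11.15, numpy 2.4.6, scipy 1.17.1 and pandas 2.3.3 were used, and the counting of 2-fold genes was tested on simulated data.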

Additional observations from a re-analysis of the deposited data

How the results depend on the processing

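No paired analysis was possible because no barcode names its run and no test was made. A margin of 2 genes left 133 members, and leaving out cells with 2 or more UMIs of a marker of another class left 139. Genes higher than in the Cd34 Scin subtype numbered 316 with each cell weighted equally, 119 in cells of 2000 to 10000 UMIs, 450 with a minimum of 20 UMIs and 37 with 200, against 184. Genes lower than in that subtype numbered 92 with a margin of 2 genes, 129 with cells weighted equally, 134 with 20 UMIs and 15 with 200, against 51. Against other neurons, a minimum of 200 UMIs gave 263 higher and 577 lower, where fewer genes were compared. Cartpt turned to -0.38 against the Cd34 Scin subtype without S100b cells, an alternative chosen after the data were seen. The cause was not tested. The other counts stayed within 1.5 times, but a like count did not mean the same genes. Of the 184 genes higher and the 51 lower than in the Cd34 Scin subtype, 44 and 11 were called again without cells holding markers of another class, 53 and 18 in cells of 2000 to 10000 UMIs, 53 and 17 with cells chosen on a random 50% of UMIs, and 77 and 21 with a margin of 2 genes. Each of these settings compared fewer genes, 3827 to 5288 in place of 7675. Against other neurons, 246 of 477 higher and 545 of 1240 lower genes were called again without cells holding markers of another class. Of 46 ratios of the genes named by rank, 26 to 46 moved by less than their interval, depending on the setting, and at most 2 fell below 2-fold. Depth limits the genes seen per cell, so the division of members from ties depends on it, and replication over mice or runs could not be assessed.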
